A study of Mus musculus with 6 samples.

Results

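The expression of 10 genes of the transforming growth factor beta (TGF-beta) pathway was followed in regulatory T (Treg) cells, a CD4 lineage defined by Foxp3 that keeps other immune cells in check. They were chosen by gene symbol, and all 10 were found among the 14608 genes of both deposited tables: the ligand Tgfb1, its surface anchor Lrrc32 (GARP), the receptors Tgfbr1 and Tgfbr2, the signal carriers Smad2, Smad3 and Smad4, the inhibitory Smad7, and the corepressors Ski and Skil. RNA-seq had been done on splenic Treg cells of mice with 3 genotypes, with 2 libraries each. The genotypes were WT (wild type), Cdc42+/- (1 knockout allele of Cdc42, a small GTPase) and Cdc42-/- (both alleles). In every genotype the cells were sorted as CD4+YFP+ after magnetic enrichment of CD4 cells, so that WT cells also carried the fluorescent protein YFP. The labels name neither the promoter that drives YFP nor the way Cdc42 was deleted, and give no age, sex, batch or treatment.

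TGF-beta is made as a latent precursor that the protease furin cleaves. On Treg cells GARP holds the latent form at the surface, and the integrin of the Itgav and Itgb8 chains releases the active cytokine. Active TGF-beta binds Tgfbr2, which recruits and activates the kinase Tgfbr1. Tgfbr1 phosphorylates Smad2 and Smad3, which enter the nucleus with Smad4, while Smad7 blocks the receptors and Ski and Skil hold SMAD complexes in a repressed state. In T cells this pathway is known for inducing Foxp3 and for restraining effector responses.

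The libraries held between 8556576 and 17796100 reads in genes, and between 568 and 7222 reads lay behind each value of the 10 genes. The targeted gene Cdc42 was measured in RPKM (reads scaled by gene length and library size) at 166 and 161 (WT), 164 and 156 (Cdc42+/-) and 122 and 173 (Cdc42-/-). The Cdc42-/- values lay on either side of those of WT, with the higher in replicate 2, and the reason was not tested. These values are for the whole gene and did not separate the genotypes, which are known from the labels alone. All 7 Treg markers were detected in every genotype, with a summed level of 1319 to 1395 RPKM in WT, 1254 to 1343 RPKM in Cdc42+/- and 909 to 1167 RPKM in Cdc42-/-. This sum does not measure Treg content, because single markers went different ways in Cdc42-/-. Ctla4 was higher, at 202 and 201 RPKM against 157 and 130 RPKM in WT. Ikzf2 (82.9 and 56.7 against 132 and 125 RPKM) and Cd3e (237 and 202 against 372 and 382 RPKM) were lower, as were Il2ra and Cd4. Foxp3 was at 118 and 58.4 RPKM, against 131 and 118 RPKM in WT, with its low value in replicate 2. Replicate 2 of Cdc42-/- stood apart: its 9 myeloid markers summed to 1201 RPKM, against 54.8 RPKM in replicate 1 and 36.2 to 57.5 RPKM in the other genotypes, and its 4 erythroid markers to 145 RPKM, against 0.367 to 17.5 RPKM elsewhere. Among other cells known for GARP, the 2 megakaryocyte markers in the tables (Itga2b and Gp1ba) summed to 2.38 to 4.78 RPKM over all libraries, and the 4 endothelial markers to 35.7 to 57.6 RPKM. Of the endothelial sum Pecam1 made up 35.3 to 57.5 RPKM, with its lowest value in Cdc42-/- replicate 2, while Cdh5, Kdr and Vwf each stayed at or below 0.260 RPKM. B cell markers summed to 10.1 to 18.9 RPKM and CD8 T and NK markers to 8.63 to 12.1 RPKM over all libraries. The Y-linked Ddx3y was at 37.7 and 42.4 RPKM in WT, at most 0.126 RPKM in Cdc42+/-, and at 0.0974 and 27.5 RPKM in Cdc42-/-. Xist, which is made from the inactive X chromosome, was at 0.199 and 1.13 RPKM (WT), 99.3 and 93.3 RPKM (Cdc42+/-) and 87.4 and 21.2 RPKM (Cdc42-/-). Cdc42-/- replicate 2 thus held both RNAs. Genotype and sex-linked expression cannot be told apart between Cdc42+/- and WT by either gene, nor between Cdc42-/- and WT by Xist.

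In WT cells Lrrc32 was the most abundant of the 10 genes, at 113 ± 8.06 RPKM (mean ± SD, n = 2 here and below), above 96.4% of the 12233 genes tested. Tgfb1 followed at 81.0 ± 4.40 RPKM, then Ski at 57.3 ± 0.297 RPKM and Tgfbr2 at 56.9 ± 4.24 RPKM, whose libraries overlapped. Smad4, Skil, Tgfbr1, Smad7 and Smad3 came next in that order, from 38.8 RPKM down to 20.8 RPKM, with no overlap between neighbours. Smad2 was lowest, at 7.36 ± 0.452 RPKM. This order is per length of transcript and changed between genotypes. In both Cdc42+/- and Cdc42-/- Tgfb1 was above Lrrc32 without overlap, and in Cdc42-/- Tgfbr2 fell from a level shared with Ski to rank 5, with libraries that overlapped those of Smad4 and Ski.

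**Figure D1:**
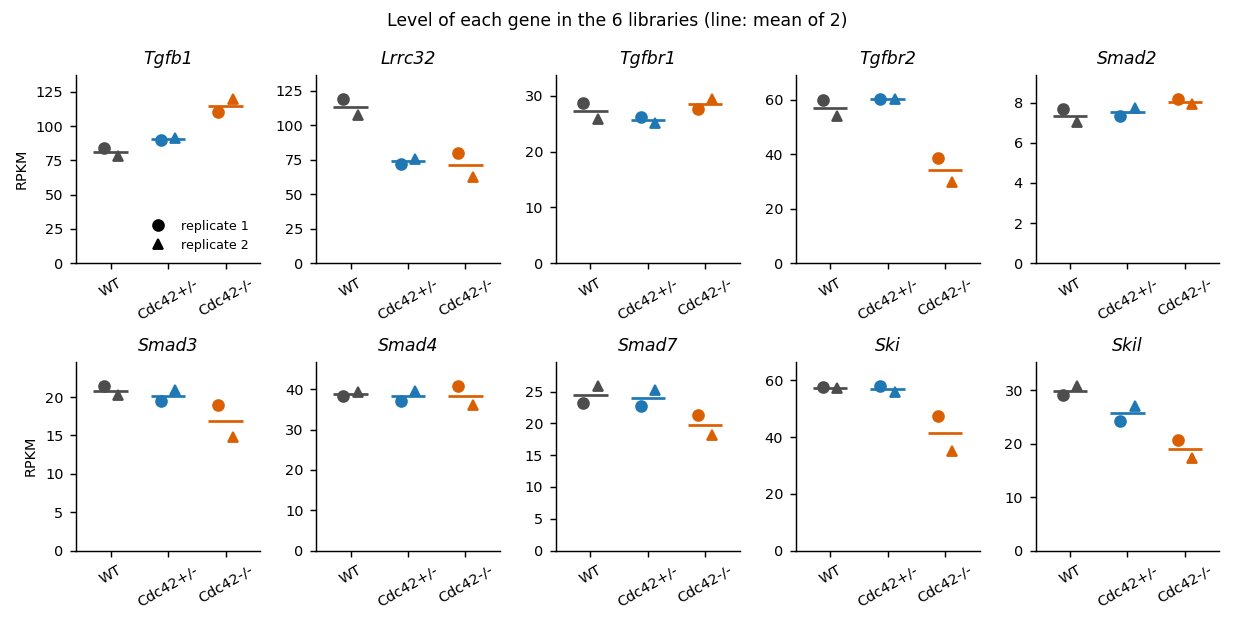
RPKM of each of the 10 genes (vertical axes from 0, a separate scale per gene) in the libraries of WT, Cdc42+/- and Cdc42-/- mice; circles are replicate 1, triangles replicate 2, lines the mean of 2. Tgfb1 is highest in Cdc42-/- (110.0 and 119.6 RPKM), Lrrc32 is lower in both knockout genotypes than in WT, and Tgfbr2 is lower in Cdc42-/- alone among the libraries shown.

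The loss of both alleles was examined by setting Cdc42-/- against WT. The threshold of limma (adjusted p of 0.05) was passed by 4 of the 10 genes: Tgfb1 rose, and Tgfbr2, Lrrc32 and Skil fell. Over all 12233 genes 11.4% passed, 6.86% higher and 4.57% lower. Of the genes called, 60.01% were thus higher, against 50.6% with upper-quartile scaling. The median log2 fold change of the 10 genes was -0.30, against 0.01 over all genes, but -0.16 without Cdc42-/- replicate 2, the library with myeloid RNA, and -0.44 without replicate 1. An unadjusted p under 0.05 was reached by 5 of the 10 genes and by 29.3% of all genes. For 8 of the 10 genes WT and Cdc42-/- libraries did not overlap, 2 with Cdc42-/- higher and 6 lower, which held for 56.0% of all genes (28.9% higher and 27.1% lower).

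Tgfb1 (chr7:25687002-25705077 in GRCm38.p6, protein-coding), the ligand, was measured at 84.1 and 77.9 RPKM (WT), 90.1 and 91.2 RPKM (Cdc42+/-) and 110.0 and 119.6 RPKM (Cdc42-/-). Every Cdc42-/- library was above every other, and both Cdc42+/- libraries lay between. On the log2(RPKM + 1) scale it rose by 0.50 in Cdc42-/- against WT (SE 0.10, adjusted p 0.0312), a ratio of mean RPKM of 1.42. The authors' deposited table gives it a log2 fold change of 0.46 and an adjusted p of 0.259.

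Lrrc32 (chr7:98489305-98501831, protein-coding), which anchors latent TGF-beta, was at 119 and 107 RPKM (WT), 72.3 and 75.7 RPKM (Cdc42+/-) and 79.6 and 62.7 RPKM (Cdc42-/-). Both knockout genotypes lay below WT and overlapped each other. The difference of Cdc42-/- from WT was -0.67 on the log2 scale (SE 0.14, adjusted p 0.0334), a ratio of mean RPKM of 0.628. Xist also separated WT from both knockout genotypes, so genotype and sex-linked expression cannot be told apart by Xist for Lrrc32. In a sorted population, fewer cells that make an RNA and less of it per cell cannot be told apart.

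Tgfbr2 (chr9:116087695-116175363, protein-coding), the receptor chain that binds the ligand, was at 59.9 and 53.9 RPKM (WT), 60.2 and 60.2 RPKM (Cdc42+/-) and 38.6 and 29.7 RPKM (Cdc42-/-). Its Cdc42-/- libraries were the lowest of the 6, while WT and Cdc42+/- were close to each other. It fell by 0.73 against WT (SE 0.15, adjusted p 0.0298), a ratio of mean RPKM of 0.601. Its partner Tgfbr1, the signalling kinase, was at 28.7 and 25.8 RPKM (WT), 26.2 and 25.0 RPKM (Cdc42+/-) and 27.6 and 29.4 RPKM (Cdc42-/-). WT and Cdc42-/- overlapped, and the difference was 0.06 with a 95% interval of -0.21 to 0.34 (adjusted p 0.737).

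The start regions of these genes are shown because the ligand rose, 1 receptor chain fell and its partner did not pass. They are the 250 bases before the RefSeq start site of the whole gene in GRCm38.p6 (the mm10 build that the submitters' processing notes name), 5′ to 3′ on the gene's strand. Capitals mark matches to the SMAD-binding letters CAGAC or to the GC-box letters GGGCGG, on either strand. Tgfb1 is at chr7:25686752-25687001 (plus strand), Tgfbr1 at chr4:47352972-47353221 (plus strand) and Tgfbr2 at chr9:116175364-116175613 (minus strand).
Tgfb1: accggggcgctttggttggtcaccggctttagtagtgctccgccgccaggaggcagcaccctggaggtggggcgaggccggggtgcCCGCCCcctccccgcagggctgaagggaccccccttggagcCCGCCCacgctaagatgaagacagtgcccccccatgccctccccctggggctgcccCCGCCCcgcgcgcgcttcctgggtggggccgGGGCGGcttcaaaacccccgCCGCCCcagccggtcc
Tgfbr1: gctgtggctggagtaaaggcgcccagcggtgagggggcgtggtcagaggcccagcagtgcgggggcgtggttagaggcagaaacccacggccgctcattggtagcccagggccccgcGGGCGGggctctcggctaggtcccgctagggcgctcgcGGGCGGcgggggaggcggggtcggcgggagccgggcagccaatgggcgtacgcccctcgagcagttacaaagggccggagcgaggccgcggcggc
Tgfbr2: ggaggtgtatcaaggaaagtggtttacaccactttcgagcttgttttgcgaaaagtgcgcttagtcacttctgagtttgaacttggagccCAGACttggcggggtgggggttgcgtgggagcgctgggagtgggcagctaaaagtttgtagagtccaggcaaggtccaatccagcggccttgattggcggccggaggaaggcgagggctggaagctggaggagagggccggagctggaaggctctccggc
A second Tgfbr1 start in the same table, within the gene at chr4:47385966-47386215, is not printed: it held 1 match to CAGAC, no GC box and a GC content of 52.8%. Of the windows shown, Tgfb1 held 5 GC-box matches and Tgfbr1 held 2, where 32.7% of 32851 promoters of the same length held at least 1. Tgfbr2 held none of these letters and 1 match to CAGAC, which 42.2% of all promoters held. The GC content was 75.2% for Tgfb1, 74.8% for Tgfbr1 and 58.4% for Tgfbr2, against a median of 52.4%. The letters TATAAA were found in none of the 3 windows and in 12.4% of all promoters. The windows of Ski and Smad3 are not printed. They held 5 and 2 GC-box matches, and these genes differed by -0.48 and -0.30 in Cdc42-/- against WT, without passing. Windows of Smad2, Smad4, Smad7, Lrrc32 and Skil were not examined. All these matches are descriptions of sequence only.

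Skil (chr3:31095058-31122923, protein-coding), a SMAD corepressor also called SnoN, was at 29.1 and 30.7 RPKM (WT), 24.3 and 27.1 RPKM (Cdc42+/-) and 20.6 and 17.4 RPKM (Cdc42-/-). The genotypes did not overlap, with Cdc42+/- in the middle. It fell by 0.63 in Cdc42-/- against WT (SE 0.13, adjusted p 0.0327), a ratio of mean RPKM of 0.635. The related corepressor Ski was at 57.5 and 57.1 RPKM (WT), 57.8 and 55.8 RPKM (Cdc42+/-) and 47.4 and 35.1 RPKM (Cdc42-/-). Both Cdc42-/- libraries lay below the others, but the difference of -0.48 (SE 0.15) did not pass (adjusted p 0.0974).

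The SMADs did not pass in any comparison with all 6 libraries in the fit. Smad3, a receptor-activated signal carrier, was at 21.4 and 20.3 RPKM (WT), 19.5 and 20.9 RPKM (Cdc42+/-) and 18.9 and 14.8 RPKM (Cdc42-/-) (-0.30 against WT, adjusted p 0.235). Smad7, the inhibitor that the pathway itself induces, was at 23.1 and 25.8 RPKM, 22.7 and 25.2 RPKM, and 21.2 and 18.1 RPKM in the same order (-0.30, adjusted p 0.197). Both were lowest in Cdc42-/- replicate 2, the library with myeloid RNA. Without that library the differences from WT were -0.13 for Smad3 (adjusted p 0.494), -0.19 for Smad7 (0.342) and -0.27 for Ski (0.0757). Without replicate 1 of Cdc42-/- they were -0.46 (0.0246), -0.41 (0.0457) and -0.69 (0.00160), in a fit where 36.2% of all genes passed. Smad2, the other receptor-activated carrier, was at 7.68 and 7.04 RPKM (WT), 7.36 and 7.73 RPKM (Cdc42+/-) and 8.17 and 7.93 RPKM (Cdc42-/-) (0.12, 95% interval -0.23 to 0.46). Smad4, the shared partner, was at 38.3 and 39.3 RPKM, 37.1 and 39.5 RPKM, and 40.7 and 36.0 RPKM. Its difference of -0.02 had a 95% interval of -0.29 to 0.25, and all 3 genotypes overlapped.

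The 4 genes kept their calls, with smaller differences, when the library with myeloid RNA was left out. Without Cdc42-/- replicate 2 the log2 fold change was 0.44 for Tgfb1 (adjusted p 0.0170), -0.55 for Tgfbr2 (0.0120), -0.50 for Lrrc32 (0.0145) and -0.52 for Skil (0.0260), in a fit where 18.5% of all genes passed. All 4 calls were lost when limma was given only WT and Cdc42-/- libraries (adjusted p 0.0985 to 0.116), where 4.38% of all genes passed. They were also lost when any 1 WT or Cdc42+/- library was left out, which leaves a genotype with 1. Those fits called fewer of all genes than the fit of all 6 libraries, and the 4 genes kept their signs. Tgfbr2 was at -0.65 or -0.80 without a WT library and at -0.73 without a Cdc42+/- library. Tgfb1 and Skil also lost theirs with array weights (0.0586 and 0.0716) and with the replicate number as a block (0.0529 and 0.0564, beside 9.35% of all genes). In all, Tgfb1 and Skil passed in 6 and Tgfbr2 and Lrrc32 in 8 of 13 alternatives. In the authors' deposited table, where 8.66% of genes are below 0.05, Tgfbr2 (0.0228), Lrrc32 (0.0371) and Skil (0.0370) are the 3 of the 10 genes that are.

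**Figure D2:**
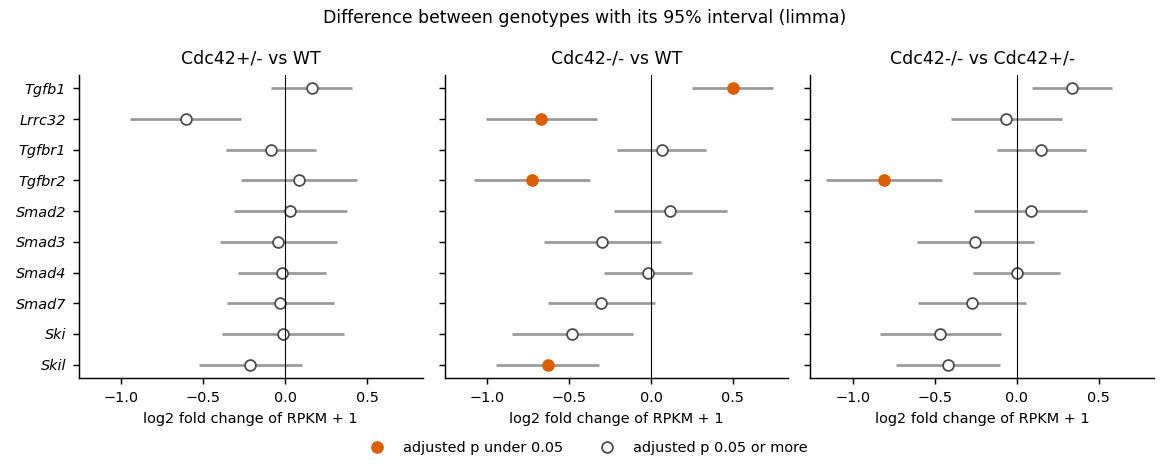
Log2 fold change of RPKM + 1 for the 10 genes (points) with the 95% interval of limma (bars) in the 3 comparisons of genotypes; filled points passed an adjusted p of 0.05. Tgfb1, Lrrc32, Tgfbr2 and Skil are filled for Cdc42-/- against WT, Tgfbr2 for Cdc42-/- against Cdc42+/-, and none for Cdc42+/- against WT.

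The loss of 1 allele was examined by setting Cdc42+/- against WT. None of the 10 genes and 0 of the 12233 genes passed in limma, while 529 genes (4.32%) and 1 of the 10, Lrrc32, had an unadjusted p under 0.05. Voom on the recovered reads called 1 gene and none of the 10. Lrrc32 was -0.61 against WT (SE 0.14, 95% interval -0.94 to -0.27, adjusted p 0.525), a ratio of mean RPKM of 0.654. In the fit of these 2 genotypes alone, where 0.490% of genes passed, it passed (adjusted p 0.0380), as it did with array weights (0.0355) and without replicate 1 (0.0330) or replicate 2 (0.0333, beside 0.540% of all genes) of Cdc42-/-. The authors' deposited table gives it -0.64 with an adjusted p of 3.75e-10, in a comparison where 2.28% of genes are below 0.05. Tgfb1 and Tgfbr2 were higher and Lrrc32 and Skil lower than WT without overlap, which held for 43.2% of all genes. Their other values were 0.16 for Tgfb1, 0.08 for Tgfbr2 and -0.21 for Skil, with an adjusted p of 0.999 each. This comparison and that of Cdc42-/- share the WT libraries. Cdc42+/- and WT also differed in Xist and Ddx3y without overlap, so genotype and sex-linked expression cannot be told apart for Lrrc32 here.

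The step from 1 lost allele to both was examined by setting Cdc42-/- against Cdc42+/-. Tgfbr2 alone passed among the 10 genes, where 8.22% of all genes did (4.68% higher and 3.54% lower, while 48.7% of the calls were higher with upper-quartile scaling and 48.9% without Cdc42-/- replicate 2), with a fall of 0.81 on the log2 scale (SE 0.15, adjusted p 0.0268). It lost the call in the fit of these 2 genotypes alone (0.0799), where 2.26% of all genes passed. The call was also lost without any 1 WT or Cdc42+/- library, which leaves a genotype with 1. Over left-out libraries the log2 fold change of Tgfbr2 ranged from -0.99 to -0.63. Without Cdc42-/- replicate 2 it was -0.63 (0.0102), where 14.9% of all genes passed. Tgfb1 (0.34, adjusted p 0.0983), Ski (-0.47, 0.118) and Skil (-0.42, 0.106) did not pass. Without Cdc42-/- replicate 1 they did (0.0147, 0.00201 and 0.0145), as did Smad3 (0.0354), in a fit where 34.8% of all genes passed. Without replicate 2 Ski was -0.26 (0.0973). The difference of Lrrc32 was -0.07, with a 95% interval of -0.40 to 0.27. An unadjusted p under 0.05 was reached by 4 of the 10 genes and 27.1% of all genes. For 8 of the 10 genes the libraries did not overlap, 3 with Cdc42-/- higher and 5 lower, as for 59.0% of all genes (28.6% higher and 30.4% lower).

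Ratios of 2 genes within a library do not depend on the scaling between libraries. RNA of other cells can still enter them. The Tgfbr2 level was 2.09 and 2.09 (WT), 2.30 and 2.41 (Cdc42+/-) and 1.40 and 1.01 (Cdc42-/-) times that of Tgfbr1. Both receptor chains were thus at nearly equal levels per length in Cdc42-/- replicate 2, the library with myeloid RNA. That library is the second Cdc42-/- value of each ratio. Tgfb1 was at 0.707 and 0.724 (WT), 1.25 and 1.20 (Cdc42+/-) and 1.38 and 1.91 (Cdc42-/-) times the level of Lrrc32, with no overlap between genotypes. The ratio of Smad3 to Smad2 was 2.79 and 2.88 (WT), 2.66 and 2.70 (Cdc42+/-) and 2.32 and 1.87 (Cdc42-/-). That of Skil to Ski was 0.506 and 0.537 (WT), 0.420 and 0.486 (Cdc42+/-) and 0.435 and 0.496 (Cdc42-/-), so the knockout genotypes overlapped.

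**Figure D3:**
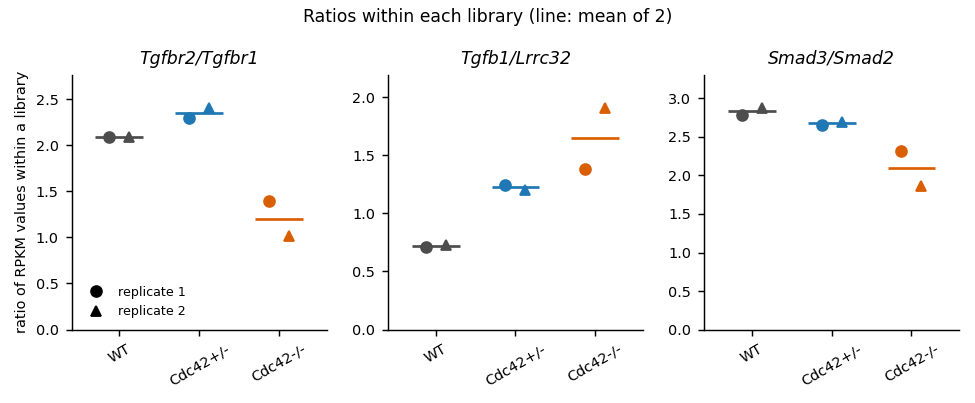
Ratio of the RPKM values of 2 genes within each library (vertical axes from 0) for Tgfbr2 over Tgfbr1, Tgfb1 over Lrrc32 and Smad3 over Smad2; circles are replicate 1, triangles replicate 2, lines the mean of 2. The receptor ratio is 2.09 in both WT libraries and 1.40 and 1.01 in Cdc42-/-, and the ratio of ligand to anchor is below 1 in WT alone. The 1.01 is that of replicate 2, the library with myeloid RNA.

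Tgfbr2 had the smallest p of the 10 genes in Cdc42-/- against WT, and the genes nearest to its pattern over the 6 libraries were sought by the root mean square difference of log2(RPKM + 1) from the WT mean. These were Tor4a (difference 0.02), Klhl17 (0.04) and Rassf2 (0.04). Tor4a was at 45.3 and 40.6 RPKM (WT), 46.1 and 45.2 RPKM (Cdc42+/-) and 30.04 and 22.8 RPKM (Cdc42-/-).

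A further 4 lists held other genes of the pathway. Of the genes for other ligands, latency and activation, 8 of 13 were tested and 2 passed in Cdc42-/- against WT, where 11.4% of all genes did. Itgb8, the integrin chain through which Treg cells activate latent TGF-beta, was at 8.06 and 8.11 RPKM (WT), 10.6 and 7.49 RPKM (Cdc42+/-) and 1.11 and 1.24 RPKM (Cdc42-/-). Its Cdc42-/- libraries lay far below the others. It fell by 2.06 against WT (SE 0.20, adjusted p 0.00345), passing in 13 of 13 alternatives, while against Cdc42+/- the log2 fold change was -2.19 (adjusted p 0.00808). Furin, the protease that cleaves the precursor, rose from 19.0 and 18.6 RPKM to 25.7 and 29.0 RPKM (0.52, SE 0.12, adjusted p 0.0413), and passed in 5 of 13 alternatives.

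Of the other receptors and their regulators, 14 of 17 were tested and 1 passed, beside 11.4% of all genes, while 6 had an unadjusted p under 0.05, beside 29.3% of all genes. This was Hsp90aa1, a chaperone known to stabilise the receptors, at 117 and 146 RPKM (WT) and 211 and 348 RPKM (Cdc42-/-) (1.05, SE 0.24, adjusted p 0.0443), which passed in 7 of 13 alternatives. The higher value is that of replicate 2, the library with myeloid RNA, without which the difference was 0.69 (0.0154). Of the other SMADs, cofactors and turnover enzymes, 30 of 33 were tested and 4 passed, 2 in each direction. Their share of 13.3% was near that of all genes (11.4%). Tgif1, a corepressor of SMADs, was at 13.5 and 13.8 RPKM (WT), 15.4 and 15.1 RPKM (Cdc42+/-) and 8.14 and 7.25 RPKM (Cdc42-/-) (-0.75 against WT, adjusted p 0.0175). Usp11, a deubiquitinase of the receptors, fell from 11.0 and 11.2 RPKM to 4.70 and 5.78 RPKM (-0.96, adjusted p 0.0152). Runx3, a transcription factor that works with SMADs, rose from 10.6 and 11.2 RPKM in WT to 25.7 and 21.5 RPKM, with 16.0 and 14.5 RPKM in Cdc42+/- (1.05, adjusted p 0.00809). Uchl5, a deubiquitinase that binds Smad7, rose from 13.6 and 13.2 RPKM to 22.8 and 31.1 RPKM (0.94, adjusted p 0.0218). Runx3 passed in 11 of 13 alternatives, failing without either WT library (0.0819 and 0.0743), and the other 3 in 8 of 13 each.

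Of the genes listed as known targets of TGF-beta signalling, 18 of 19 were tested and 8 passed, 6 higher and 2 lower, beside 11.4% of all genes. The median log2 fold change was 0.77, against 0.01 over all genes, and 0.30 without Cdc42-/- replicate 2, the library with myeloid RNA. Id3, an inhibitor of E-protein transcription factors, fell from 63.6 and 75.7 RPKM to 23.9 and 19.8 RPKM (-1.63, SE 0.14, adjusted p 0.00231). Ldlrad4, a membrane protein that restrains SMAD activation, fell from 20.1 and 18.7 RPKM to 5.40 and 4.79 RPKM (-1.74, SE 0.15, adjusted p 0.00248). Cdkn1a, the cell cycle inhibitor p21, rose from 0.7097 and 2.01 RPKM to 11.6 and 15.3 RPKM (2.66, SE 0.31, adjusted p 0.00539). Itgae, the integrin chain CD103, was at 17.1 and 12.6 RPKM (WT), 23.8 and 18.4 RPKM (Cdc42+/-) and 37.1 and 36.8 RPKM (Cdc42-/-) (1.27, SE 0.19, adjusted p 0.0109). Junb, an AP-1 subunit, rose from 78.9 and 94.4 RPKM to 161 and 176 RPKM (0.96, SE 0.15, adjusted p 0.0142). Id3, Ldlrad4 and Cdkn1a passed in 13 of 13 alternatives. Itgae failed without WT replicate 2 (0.0842), and Junb without WT replicate 1 (0.115) or 2 (0.0752).

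**Figure D4:**
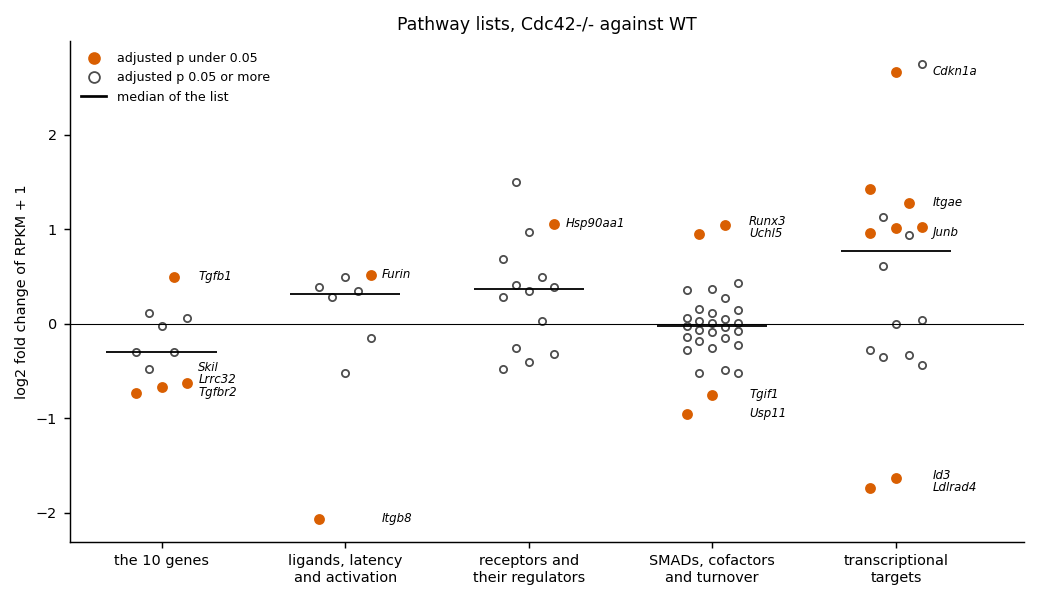
Log2 fold change of RPKM + 1 in Cdc42-/- against WT for each tested gene of the 10 and of the 4 further lists (horizontal positions within a list carry no meaning); filled points passed an adjusted p of 0.05 and lines are list medians. Itgb8 at -2.06 lies lowest, and the targets hold both Cdkn1a at 2.66 and Ldlrad4 at -1.74.

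Without Cdc42-/- replicate 2 the numbers past the threshold in the 4 further lists were 2, 2, 6 and 10 in the order given, beside 18.5% of all genes. With only WT and Cdc42-/- libraries they were 1, 0, 1 and 6, beside 4.38% of all genes. In Cdc42+/- against WT 0 genes of these lists passed in limma or with voom, and 0, 0, 2 and 4 had an unadjusted p under 0.05, beside 4.32% of all genes. The target Gpr83, named after its values were seen, passed with only these 2 genotypes (adjusted p 0.0231) and without replicate 1 (0.0205) or 2 (0.0196) of Cdc42-/-. It was at 64.8 and 67.3 RPKM (WT), 40.1 and 40.8 RPKM (Cdc42+/-) and 70.02 and 33.4 RPKM (Cdc42-/-), so that its Cdc42-/- libraries lay on either side of the others. The smallest p in each list belonged to Inhba, Bmpr1a, Runx3 and Myc. Myc was at 47.7 and 51.4 RPKM in WT and 35.85 and 35.7 RPKM in Cdc42+/- (-0.46, adjusted p 0.597). In Cdc42-/- against Cdc42+/- the numbers were 1 of 8, 0 of 14 (5 with an unadjusted p under 0.05, 1 with voom), 2 of 30 and 5 of 18, beside 8.22% of all genes. They were 1, 0, 0 and 3 with only these 2 genotypes (beside 2.26%) and 2, 1, 6 and 9 without Cdc42-/- replicate 2 (beside 14.9%). Among the genes called, Tgif1 fell by 0.91 (adjusted p 0.0152), Uchl5 rose by 0.86 (0.0355), Id3 fell by 1.53 (0.00808), Ldlrad4 fell by 1.71 (0.00808), Cdkn1a rose by 2.50 (0.0117) and Junb rose by 0.84 (0.0272). Of 13 alternatives, Id3, Ldlrad4, Cdkn1a and Itgb8 passed in 11 each, Tgif1 and Uchl5 in 8 each and Junb in 7. Ccr8, a chemokine receptor of Treg cells, was at 17.7 and 11.7 RPKM (Cdc42+/-) and 41.6 and 27.5 RPKM (Cdc42-/-), without overlap (1.18, adjusted p 0.0441), and passed in 5 of 13 alternatives.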

How the data were processed

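The authors deposited 2 tables, Cdc42+/- and Cdc42-/- each against WT, which share the WT columns. TopHat and mm10 are named in the submitters' processing notes; the counting tool, annotation and strand setting are not given in the sources used here. The deposited library columns are RPKM, worked out from the values: with the deposited group means (a signal, reads over a size factor per library) 100% of values came out as whole reads within a tolerance of 0.001, and 0 columns lacked a known sample. The deposited tables also hold the authors' fold ratio, its log2 value, p-values and adjusted p-values from an unnamed test, quoted only as such.

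Tests used limma 3.58.1 in R 4.3.3 (lmFit, eBayes with trend) on log2(RPKM + 1), which understates changes of low genes, with all 6 libraries in 1 fit. Genes whose mean RPKM was under 0.5 were left out, and p-values were adjusted by Benjamini-Hochberg over the 12233 kept. All 10 genes passed the filter. No 2 libraries of a genotype looked like copies of 1 library (chi-square per gene 6.15 to 42.7).

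The 10 genes, the lists and the tests were chosen with earlier results of these data known. All 10 were named. Of each further list, at most 3 genes per direction and comparison were named by smallest p among those past the threshold, or the 1 with the smallest p. Among the 10 genes, 4 (Tgfbr1, Tgfbr2, Smad3, Smad7) overlap a non-coding gene in RefSeq, and their reads may be shared. Coordinates are RefSeq GRCm38.p6. The 13 alternatives per comparison changed the pseudocount (0.1), filter, scaling, libraries, weights, test or block.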

Additional observations from a re-analysis of the deposited data

How the results depend on the processing

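With 2 libraries per genotype, counts of calls depended on the libraries, weights and test used. In Cdc42+/- against WT the number of genes past the threshold was 0, but 88 with array weights, 60 with only the 2 genotypes, 1 with voom, and 0 to 76 over leaving out each library. Of the 10 genes 0 passed, against 1 with array weights, 1 with the 2 genotypes and 0 to 1 over left-out libraries. In Cdc42-/- against WT 1398 genes passed, against 885, 536 and 259 to 4433, and 4 of the 10 genes, against 2, 0 and 0 to 7. In Cdc42-/- against Cdc42+/- 1006 genes passed, against 276 with only the 2 genotypes and 0 to 4263 over left-out libraries, and 1 of the 10 genes, against 0 and 0 to 5. The cause was not tested.

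With the replicate number as a block, 2 of the 10 genes (Tgfbr2 and Lrrc32) and 9.35% of all genes passed in Cdc42-/- against WT, while Tgfb1 (adjusted p 0.0529) and Skil (0.0564) did not. The labels do not say what the numbers mean. Deviations of same-numbered libraries correlated across genes at 0.02 (WT and Cdc42+/-), 0.20 (WT and Cdc42-/-) and -0.03 (Cdc42+/- and Cdc42-/-).

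Upper-quartile scaling moved the median of all genes in Cdc42-/- against WT from 0.01 to -0.06, and Tgfbr1 from 0.06 to -0.0098. The 4 genes called there, and Ski, Smad3 and Smad7, kept their sign in all 13 alternatives. Signs changed for genes that passed in none of the 3 comparisons as given, and for Lrrc32 in Cdc42-/- against Cdc42+/-. Over left-out libraries in Cdc42+/- against WT, Ski ranged from -0.038 to 0.012, Smad2 from -0.023 to 0.087, Smad3 from -0.087 to 0.0033, Smad4 from -0.061 to 0.027 and Smad7 from -0.10 to 0.047. In Cdc42-/- against WT, Tgfbr1 ranged from -0.0085 to 0.14 and Smad4 from -0.11 to 0.067. In Cdc42-/- against Cdc42+/-, Lrrc32 ranged from -0.24 to 0.10 and Smad4 from -0.088 to 0.084, with 0.00018 for Smad4 under voom. At least 568 reads lay behind each value, and the spread is known from 2 libraries per genotype. Leaving out a library leaves a genotype with 1, which is assumed to vary like the others.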
